A study of Mus musculus with 16 samples.

Results

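Desulfovibrionaceae are anaerobic gut bacteria whose respiration ends in hydrogen sulfide. Desulfovibrio reduces sulfate with electrons from hydrogen or from organic acids such as lactate, and Bilophila respires the sulfite that it frees from taurine, the amino acid joined to most mouse bile acids. In the colon sulfate comes from host mucin and the diet, and sulfide at high levels is toxic to the epithelium.

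All 19 of 1901 amplicon sequence variants (ASVs, distinct 16S rRNA gene sequences, each counted as a taxon) whose deposited taxonomy named f__Desulfovibrionaceae were taken as members. ASV55 was the 1 ASV of Bilophila, 11 ASVs were of Desulfovibrio and 7 had no genus name and are called unclassified Desulfovibrionaceae. No member carried a species name, and 0 ASVs of the table were placed in Desulfobacterota, the family's phylum, outside this family. The members held 27394 counts, which was 1.77% of all counts over the 16 mice. Desulfovibrio held 61.2% of the family's counts, Bilophila 23.6% and the unclassified members 15.2%. A single ASV led each genus-level group, with ASV21 holding 81.1% of Desulfovibrio and ASV94 holding 89.4% of the unclassified members.

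The study sequenced 16S rRNA from distal colon tissue, rinsed of faecal residue, of 4 groups of 4 mice each. MERTK-KO+DSS mice lacked Mertk, a receptor with which macrophages engulf dying cells, and drank 2.5% dextran sulfate sodium (DSS, a sulfated glucose polymer that damages the gut lining) for 7 days. MERTK-KO mice had the same genotype and drank sterile water, WT+DSS mice were wild type and drank DSS, and WT mice were wild type and drank water. Every mouse had the C57BL/6J background, was kept under specific pathogen-free conditions, was 8 to 10 weeks old at the start and was sampled on day 8. No source used here gives the litters, the cages, or a promoter or cell type for the knockout. Neither genotype nor DSS treatment can therefore be told apart from cage. The table holds bacterial ASVs alone, so neither the tissue nor the loss of Mertk could be checked in it.

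Every library held 96469 counts, and a taxon with 0 counts in a mouse can have had a share of up to 0.00311% (3 counts, covering counting error only). Shares sum to the whole in each mouse, so a higher share of 1 taxon lowers the others, and shares do not give the number of bacteria. Of the 19 members, 11 passed the filter (a total of 10 counts or more, spread over 3 libraries or more), and these held 98.8% of the family's counts. Mouse 4 of the MERTK-KO group stood apart from its group at ASV level but not at genus level. Its mean Bray-Curtis distance to its group at ASV level was 0.532, against 0.402 to 0.433 for the other 3 mice. At genus level it was 0.225, against 0.202 to 0.227. WT+DSS mouse 1 lay similarly far from its group at ASV level (0.529, against 0.433 to 0.455). MERTK-KO mouse 4 also lay far from the other 3 in Bilophila and Desulfovibrio, which are values tested here, so fits without it are descriptive. Results that rest on MERTK-KO mouse 4 are given with and without it.

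The family as a whole passed the test in none of the 5 comparisons. It had 2483, 1781, 2110 and 1406 counts in MERTK-KO+DSS mice 1 to 4, 1592, 1398, 1555 and 2578 in MERTK-KO mice, 951, 1040, 2198 and 1552 in WT+DSS mice, and 1068, 1972, 2299 and 1411 in WT mice. The ranges of all 4 groups overlapped. The mean share was 2.02% ± 0.477 in MERTK-KO+DSS mice, 1.85% ± 0.558 in MERTK-KO mice, 1.49% ± 0.594 in WT+DSS mice and 1.75% ± 0.573 in WT mice (SD, n = 4 each). 

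**Figure D1:**
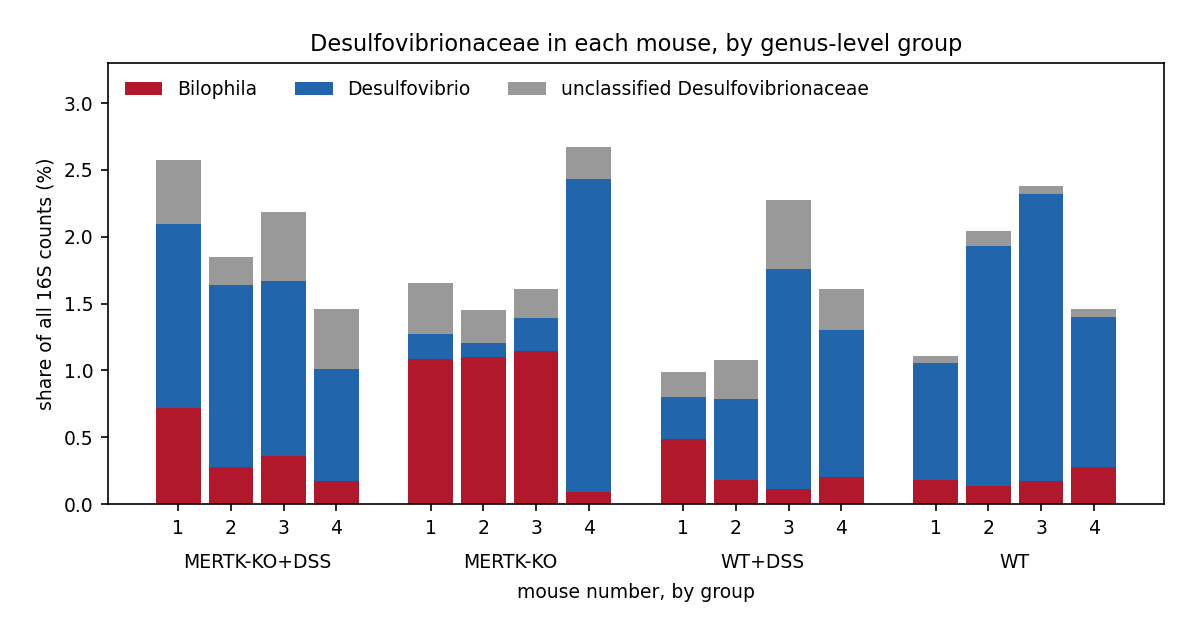
Share of all 16S counts (%) held by Bilophila, Desulfovibrio and unclassified Desulfovibrionaceae, stacked for each of the 16 mice by group. Family totals lie between 0.986% and 2.67%, while Bilophila makes up most of the bar in MERTK-KO mice 1 to 3 and little of it in MERTK-KO mouse 4.

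The log2 fold change of the family under DSS was 0.13 in MERTK-KO mice (95% confidence interval -0.80 to 1.05, edgeR adjusted p = 0.905) and -0.23 in WT mice (-1.16 to 0.69, adjusted p = 0.678). Between genotypes it was 0.08 on water (-0.85 to 1.00, adjusted p = 0.965) and 0.44 under DSS (-0.49 to 1.36, adjusted p = 0.52). The interaction, the DSS effect in MERTK-KO mice minus that in WT mice, was 0.36 (-0.94 to 1.67, adjusted p = 0.962). Over all 57 families tested, edgeR called 42.1% in MERTK-KO+DSS against MERTK-KO mice, 26.3% in WT+DSS against WT mice, 35.1% in MERTK-KO against WT mice, 24.6% in MERTK-KO+DSS against WT+DSS mice and 14.0% for the interaction. Desulfovibrionaceae was called in 0 of these 5, with an unadjusted p under 0.05 in 0 and a DESeq2 call in 0. Limma on centred log-ratios called the family higher in MERTK-KO than in WT mice (log2 1.70, adjusted p = 0.00593), on a scale on which the median of all families was 0.98 rather than the -0.89 of edgeR.

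Bilophila had a higher share in MERTK-KO than in WT mice, with 1 mouse of the knockout group below all WT mice. It had 690, 266, 349 and 166 counts in MERTK-KO+DSS mice 1 to 4 and 1048, 1061, 1108 and 90 in MERTK-KO mice, against 470, 175, 108 and 198 in WT+DSS mice and 171, 127, 163 and 270 in WT mice. MERTK-KO mice 1 to 3 had the 3 highest counts of the 16 mice, and MERTK-KO mouse 4 had the lowest. The mean share was 0.381% ± 0.236 in MERTK-KO+DSS mice, 0.857% ± 0.510 in MERTK-KO mice, 0.246% ± 0.165 in WT+DSS mice and 0.189% ± 0.0635 in WT mice (SD, n = 4 each). Bilophila was thus 4.52-fold higher in MERTK-KO than in WT mice (log2 2.18, SE 0.75, edgeR adjusted p = 0.0315 over all genus-level groups).

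This call depended on the mice. Without MERTK-KO mouse 4 the difference was 5.87-fold (log2 2.55, adjusted p = 0.00477), and in the 3 remaining mice Bilophila held 1.11% ± 0.0327 (SD, n = 3). Without any one of MERTK-KO mice 1 to 3 or WT mice 1 to 3 the adjusted p lay between 0.0581 and 0.0744, and with TMM scaling it was 0.0747. The log2 fold change under DSS was -1.17 in MERTK-KO mice (SE 0.73, adjusted p = 0.276) and 0.38 in WT mice (SE 0.72, adjusted p = 0.731), and between the genotypes under DSS it was 0.63 (SE 0.72, adjusted p = 0.575). The interaction was -1.55 (SE 1.02, adjusted p = 0.431). None of these 4 passed the test, and without MERTK-KO mouse 4 the DSS effect in MERTK-KO mice was -1.54 (adjusted p = 0.0636).

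**Figure D2:**
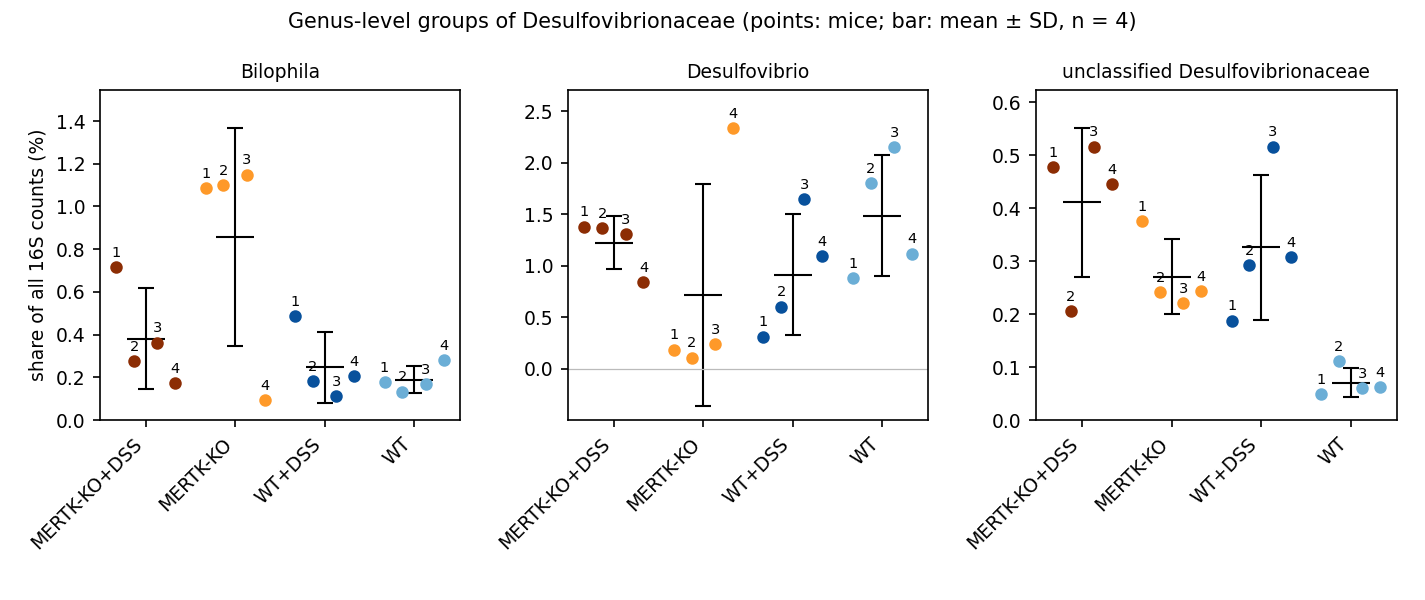
Share of all 16S counts (%) of each genus-level group, with 1 numbered point per mouse and the mean ± SD of the 4 mice in each group. The SD bar of Desulfovibrio in MERTK-KO mice reaches below 0 because mouse 4 (2.34%) lies far above the other 3, and all 4 WT mice lie below the other 12 mice for the unclassified members.

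Desulfovibrio, a sulfate-reducing genus, passed the test in no comparison with all 16 mice. Its leading ASV, ASV21, had 1309, 1277, 1231 and 794 counts in MERTK-KO+DSS mice 1 to 4 and 159, 89, 182 and 2251 in MERTK-KO mice, against 164, 146, 1130 and 541 in WT+DSS mice and 639, 1283, 1587 and 814 in WT mice. MERTK-KO mouse 4 had the highest count of all 16 mice and MERTK-KO mouse 2 the lowest, and WT+DSS mice 1 and 2 lay beside the low MERTK-KO mice. The genus held 1.22% ± 0.258 in MERTK-KO+DSS mice, 0.719% ± 1.08 in MERTK-KO mice, 0.915% ± 0.587 in WT+DSS mice and 1.49% ± 0.590 in WT mice (SD, n = 4 each).

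The log2 fold change of Desulfovibrio under DSS was 0.77 in MERTK-KO mice (edgeR adjusted p = 0.549) and -0.70 in WT mice (adjusted p = 0.544). Between genotypes it was -1.05 on water (adjusted p = 0.327) and 0.42 under DSS (adjusted p = 0.765), and the interaction was 1.47 (adjusted p = 0.506). Leaving out MERTK-KO mouse 4 changed 3 of these. Desulfovibrio was then 6.81-fold higher in MERTK-KO+DSS than in MERTK-KO mice (log2 2.77, adjusted p = 0.00194) and 8.29-fold lower in MERTK-KO than in WT mice (log2 -3.05, adjusted p = 0.00161), and the interaction was 3.47 (adjusted p = 0.0074). In MERTK-KO mice 1 to 3 the genus held 0.180% ± 0.0678 (SD, n = 3). Whether mouse 4 differs for a biological or a technical reason was not tested.

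**Figure D3:**
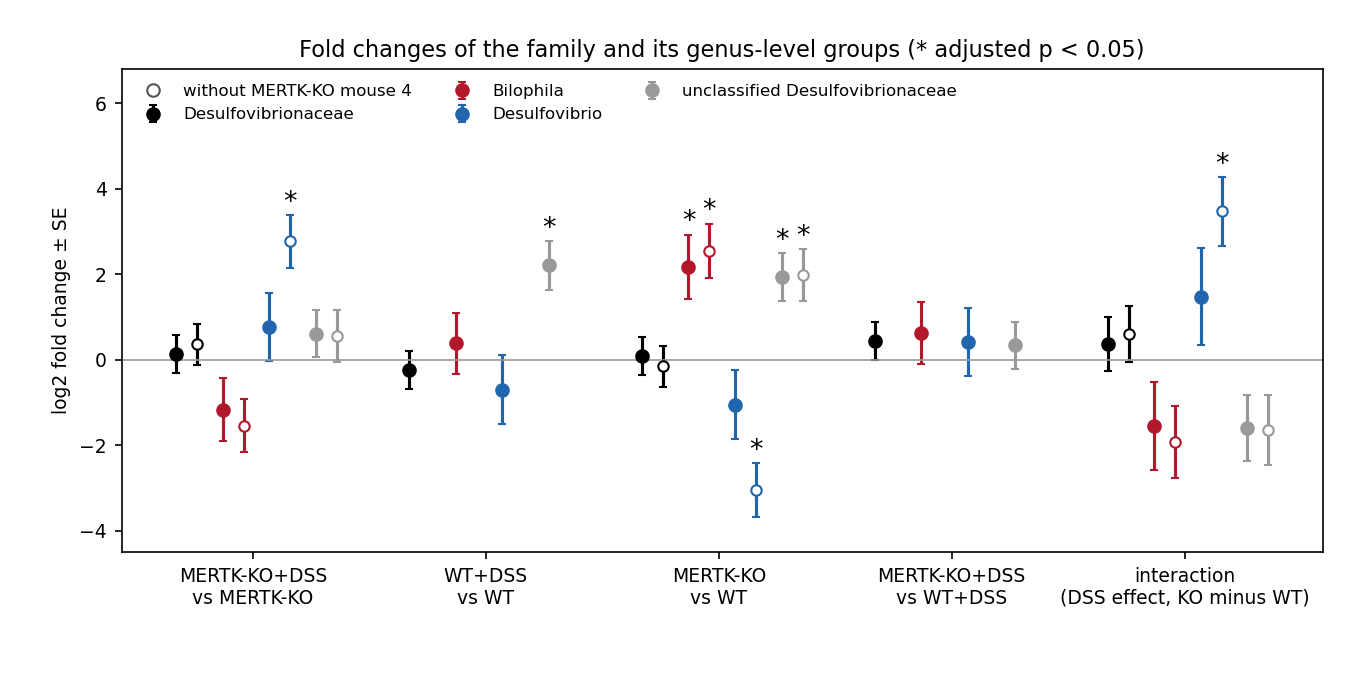
Log2 fold change ± SE of the family and of its genus-level groups in the 4 pairwise comparisons and the interaction, from edgeR, with filled points for all 16 mice, open points without MERTK-KO mouse 4, and a star for an adjusted p under 0.05. Filled Desulfovibrio points carry no star, while 3 open ones do.

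ASV208 was the second most abundant Desulfovibrio ASV and was counted in wild-type mice alone, both WT and WT+DSS. It had 0 counts in each of the 4 MERTK-KO+DSS and 4 MERTK-KO mice, against 30, 28, 320 and 118 in WT+DSS mice and 171, 414, 473 and 212 in WT mice. The genotypes did not overlap in either treatment. On water ASV208 was at least 106-fold lower in MERTK-KO than in WT mice (edgeR adjusted p = 0.000531), and under DSS it was at least 41.3-fold lower in MERTK-KO+DSS than in WT+DSS mice (adjusted p = 0.00164), both against a floor of 3 counts per mouse. Without WT+DSS mouse 3 the second limit was 19.6-fold. ASV208 passed the filter through wild-type mice alone, so the 2 calls against groups at 0 are not separate support for the difference. In WT mice ASV208 had a log2 change of -1.36 under DSS, which did not pass the test (adjusted p = 0.427).

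ASV208 was counted at 18.3 to 32.3 per 100 counts of ASV21 in the wild-type mice of both treatments. The ratio was 18.3, 19.2, 28.3 and 21.8 in WT+DSS mice 1 to 4, and 26.8, 32.3, 29.8 and 26.0 in WT mice. ASV21 itself varied between 146 and 1587 counts over these 8 mice. In the 8 knockout mice ASV21 was counted at 89 to 2251, and 0 counts of ASV208 allow at most 0.133 to 3.37 per 100 counts of ASV21, which is below the ratio in every WT and WT+DSS mouse.

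**Figure D4:**
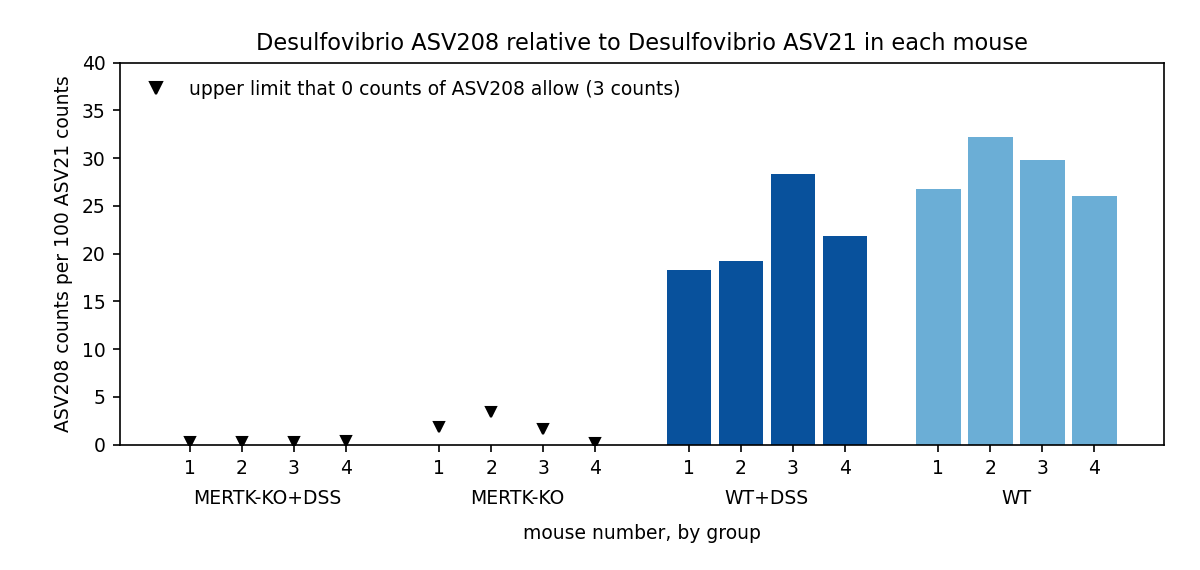
Counts of Desulfovibrio ASV208 per 100 counts of Desulfovibrio ASV21 in each mouse, by group. Bars span 18.3 to 32.3 in the 8 WT and WT+DSS mice, and triangles mark the upper limit for the 8 knockout mice, in which ASV208 had 0 counts.

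ASV703, a smaller Desulfovibrio ASV, was lower in knockout mice. It had 0, 0, 0 and 3 counts in MERTK-KO+DSS mice and 0 in all 4 MERTK-KO mice, against 16, 29, 28 and 21 in WT+DSS mice and 7, 32, 18 and 9 in WT mice. Neither pair of genotypes overlapped. It was at least 5.5-fold lower in MERTK-KO than in WT mice (edgeR adjusted p = 0.00615), and the call under DSS (adjusted p = 0.0326) was lost without MERTK-KO+DSS mouse 1, 2 or 3 (0.0605 to 0.0667) and without the filter (0.114). 

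ASV709 was counted in knockout mice alone. It had 9, 33, 12 and 12 counts in MERTK-KO+DSS mice and 23, 15, 52 and 0 in MERTK-KO mice, against 0 in all 8 WT+DSS and WT mice. It was at least 7.5-fold higher in MERTK-KO than in WT mice (edgeR adjusted p = 0.0115), or at least 4.22-fold without MERTK-KO mouse 3 and at least 10.0-fold without MERTK-KO mouse 4. Under DSS it was at least 5.5-fold higher in MERTK-KO+DSS than in WT+DSS mice (adjusted p = 0.0191). ASV709 passed the filter through knockout mice alone, so a difference from the wild-type groups at 0 was built in. Neither call is support for it.

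ASV472 was counted in WT+DSS mice alone, with 90, 0, 114 and 165 counts. It was at least 30.8-fold higher in WT+DSS than in WT mice (edgeR adjusted p = 0.0443) and at least 30.8-fold lower in MERTK-KO+DSS than in WT+DSS mice (adjusted p = 0.028). ASV472 passed the filter through the WT+DSS mice alone. A difference from groups at 0 was thus built in, and neither call is support for it. The groups overlapped because WT+DSS mouse 2 had 0 counts. The first call was lost without any one of the 4 WT mice (adjusted p 0.0695 to 0.0759), the second without MERTK-KO+DSS mouse 4 (0.0508), and without WT+DSS mouse 1, 3 or 4 the ASV no longer passed the filter.

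ASV414 and ASV509 were not called in any comparison. ASV414 had 12, 7, 20 and 0 counts in MERTK-KO+DSS mice and 0 in all 4 MERTK-KO mice, against 0, 125, 0 and 212 in WT+DSS mice and 0, 9, 0 and 46 in WT mice. Its lowest edgeR adjusted p was 0.0532, in MERTK-KO against WT mice, where it passed without the filter (0.045) and without WT mouse 3 (0.0496). ASV509 was counted in 2 mice, with 254 counts in WT+DSS mouse 2 and 33 in WT mouse 1, and was too rare to be tested.

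**Figure D5:**
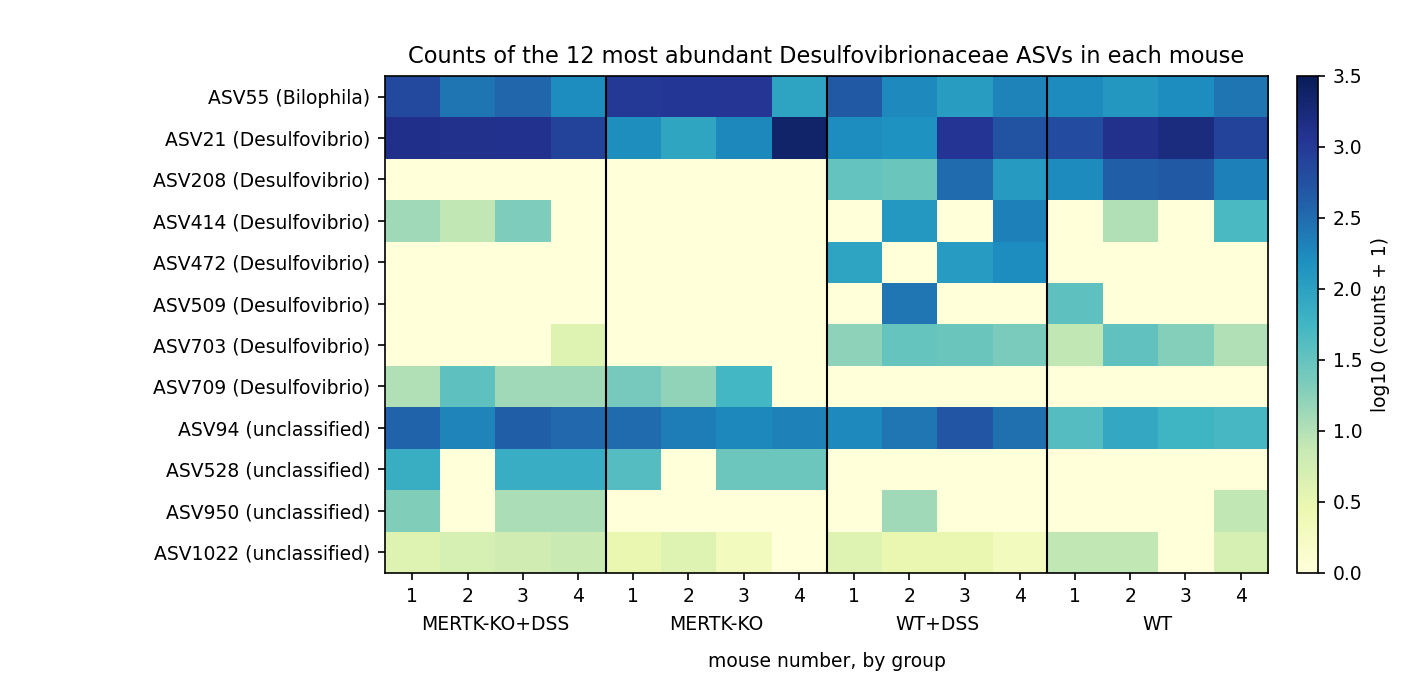
Counts of the 12 most abundant Desulfovibrionaceae ASVs, as the colour of log10(counts + 1), in the 16 mice by group. ASV208 and ASV703 are coloured in WT and WT+DSS mice and ASV528 and ASV709 in MERTK-KO and MERTK-KO+DSS mice, except for 3 counts of ASV703 in MERTK-KO+DSS mouse 4.

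The unclassified members were lowest in WT mice on water. They held 0.411% ± 0.140 in MERTK-KO+DSS mice, 0.270% ± 0.0707 in MERTK-KO mice, 0.326% ± 0.138 in WT+DSS mice and 0.0705% ± 0.0276 in WT mice (SD, n = 4 each). They were 4.62-fold higher in WT+DSS than in WT mice (log2 2.21, SE 0.57, edgeR adjusted p = 0.00742) and 3.83-fold higher in MERTK-KO than in WT mice (log2 1.94, SE 0.57, adjusted p = 0.016), with no overlap in either. With TMM scaling the second had an adjusted p of 0.0747. The log2 change was 0.61 in MERTK-KO+DSS against MERTK-KO mice (adjusted p = 0.474) and 0.34 in MERTK-KO+DSS against WT+DSS mice (adjusted p = 0.71), and neither passed the test. The interaction was -1.60 (SE 0.78, adjusted p = 0.25), and it passed with DESeq2 (-1.80, adjusted p = 0.0297) and with limma on centred log-ratios (-2.42, adjusted p = 0.0277).

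ASV94 carried most of these counts. It had 372, 194, 412 and 344 counts in MERTK-KO+DSS mice and 320, 230, 185 and 208 in MERTK-KO mice, against 178, 258, 496 and 295 in WT+DSS mice and 40, 79, 58 and 49 in WT mice. All 4 WT mice lay below the other 12 mice. ASV94 rose 5.43-fold in WT+DSS against WT mice (log2 2.44, SE 0.60, edgeR adjusted p = 0.0158) and was 4.17-fold higher in MERTK-KO than in WT mice (log2 2.06, SE 0.59, adjusted p = 0.0115). Without the filter on low counts both missed the threshold (adjusted p 0.103 and 0.0937). Its interaction was -1.95 (adjusted p = 0.187) in edgeR, -2.06 (0.00344) in DESeq2 and -2.58 (0.0171) in limma.

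ASV528 was counted in knockout mice alone. It had 67, 0, 71 and 70 counts in MERTK-KO+DSS mice and 40, 0, 27 and 27 in MERTK-KO mice, against 0 in all 8 WT+DSS and WT mice. It was at least 7.83-fold higher in MERTK-KO than in WT mice (edgeR adjusted p = 0.0226) and at least 17.3-fold higher in MERTK-KO+DSS than in WT+DSS mice (adjusted p = 0.022). In each treatment mouse 2 of the knockouts had 0 counts, so the groups overlapped. ASV528 passed the filter through knockout mice alone. A difference from the wild-type groups at 0 was thus built in, and neither call is support for it. ASV950, with 19, 0, 10 and 10 counts in MERTK-KO+DSS mice, 0 in MERTK-KO mice, 12 in WT+DSS mouse 2 and 7 in WT mouse 4, passed no test, nor did ASV1022, with 0 to 7 counts in every mouse. The other 7 members, ASV1304, ASV1462, ASV1584, ASV1601, ASV1603, ASV1624 and ASV1642, had 1 to 21 counts, each in a single mouse.

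Counted over the genus-level groups, edgeR called 0 of 3 in MERTK-KO+DSS against MERTK-KO mice (32.8% of all 122 groups tested), 1 in WT+DSS against WT mice (32.0%), 2 in MERTK-KO against WT mice (40.2%), 0 in MERTK-KO+DSS against WT+DSS mice (20.5%) and 0 for the interaction (9.02%). Where edgeR called 0, the unadjusted p was under 0.05 for 0 groups, and DESeq2 and limma each called 0, 0 and 1. Leaving out MERTK-KO mouse 4 gave 1 call in MERTK-KO+DSS against MERTK-KO mice and 1 for the interaction, both Desulfovibrio.

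Counted over the ASVs, most calls lay in the comparisons between genotypes, where most calls over the whole table lay too. In MERTK-KO+DSS against MERTK-KO mice 0 of the 9 members with a value were called (13.4% of all 1056 ASVs tested), with an unadjusted p under 0.05 for 2 and no call by DESeq2 or limma. WT+DSS against WT mice gave 2 of 9, both higher (16.9%), and leaving out any 1 mouse except WT+DSS mouse 2 left 1 call. MERTK-KO against WT mice gave 6 of 10, of which 4 were higher and 2 lower (52.8%). MERTK-KO+DSS against WT+DSS mice gave 5 of 11, of which 2 were higher and 3 lower (37.7%). ASV472, which passed the filter through WT+DSS mice alone, is counted in this number and in the 2 of 9. ASV208, ASV528 and ASV709, which passed it through 1 genotype alone, are counted in the 6 of 10 and the 5 of 11. The interaction gave 0 of 7 (5.59%), with 1 at an unadjusted p under 0.05 and 1 call each by DESeq2 and limma. Members at 0 in both compared groups, or in a whole genotype for the interaction, have no value. The background counts such ASVs among its 1056, so its shares are not on the same base. No enrichment was tested.

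Without MERTK-KO mouse 4, ASV21 was 8.04-fold higher in MERTK-KO+DSS than in MERTK-KO mice (log2 3.01, edgeR adjusted p = 0.0157) and 7.54-fold lower in MERTK-KO than in WT mice (log2 -2.91, adjusted p = 0.00719), with an interaction of 4.13 (adjusted p = 0.0126). With all 16 mice the same values were 0.78 (adjusted p = 0.762), -0.69 (adjusted p = 0.56) and 1.91 (adjusted p = 0.589). Over all 1040 ASVs tested without this mouse, edgeR called 142, 442 and 68 in these 3 comparisons. With all 16 mice it had called 141, 558 and 59 of 1056.

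Several members were counted in 1 genotype alone. Of the 19 members, 5 were counted in knockout mice alone, 7 in wild-type mice alone and 7 in both. Among the 11 that passed the filter the numbers were 2, 2 and 7, and over all 1056 ASVs that passed it 17.4% were counted in knockout mice alone, 29.6% in wild-type mice alone and 52.9% in both. The 4 tested members restricted to 1 genotype were ASV528 and ASV709 in knockout mice and ASV208 and ASV472 in wild-type mice. ASV472 passed the filter through WT+DSS mice alone, and the others through the 1 genotype in which they were counted.

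The number of member ASVs counted per mouse was 9, 6, 8 and 9 in MERTK-KO+DSS mice, 6, 5, 6 and 5 in MERTK-KO mice, 7, 11, 7 and 9 in WT+DSS mice, and 7, 8, 5 and 8 in WT mice. MERTK-KO mice had the lowest mean, 5.5 ± 0.577, against 8.0 ± 1.41 in MERTK-KO+DSS mice, 8.5 ± 1.91 in WT+DSS mice and 7.0 ± 1.41 in WT mice (SD, n = 4 each). The difference of 2.5 ASVs between MERTK-KO+DSS and MERTK-KO mice had p = 0.0857 in a two-sided exact permutation test (0.343 after Benjamini-Hochberg adjustment over 4 comparisons). The other 3 differences were 1.5 for WT+DSS minus WT mice (exact p = 0.371), -1.5 for MERTK-KO minus WT mice (exact p = 0.171) and -0.5 for MERTK-KO+DSS minus WT+DSS mice (exact p = 0.8). None passed, and the smallest p that 4 against 4 mice allow is 0.0286.

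Within the family, the leading ASV differed between mice. Bilophila led in MERTK-KO mice 1 to 3 with 65.8%, 75.9% and 71.3% of the family's counts, and ASV21 led in MERTK-KO mouse 4 with 87.3%. In all 4 MERTK-KO+DSS mice ASV21 led with 52.7% to 71.7%, and in all 4 WT mice it led with 57.7% to 69.0%. WT+DSS mice were mixed, with Bilophila leading in mouse 1 (49.4%), ASV94 in mouse 2 (24.8%) and ASV21 in mice 3 (51.4%) and 4 (34.9%). These are ratios within the family and carry no test.

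Among 65 genus-level groups with at least 0.1% in a group mean, Rikenella, Oscillibacter and GCA-900066575 had the pattern over the 16 mice most like that of the family. Likeness was the root mean square difference of log2 shares, each scaled to mean 0 and SD 1, and was 0.793, 0.903 and 0.959 for these 3, against a median of 1.42. Rikenella held 0.568% ± 0.294 in MERTK-KO+DSS mice, 0.535% ± 0.205 in MERTK-KO mice, 0.140% ± 0.0802 in WT+DSS mice and 0.148% ± 0.0743 in WT mice (SD, n = 4 each). In the same order, Oscillibacter held 3.35% ± 1.93, 2.21% ± 0.936, 1.48% ± 0.791 and 0.609% ± 0.420. GCA-900066575 held 0.522% ± 0.157, 0.542% ± 0.557, 0.594% ± 0.302 and 0.710% ± 0.262. The ranking used single mice, and a shared difference between groups was not tested.

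Genera that supply or compete for the family's substrates were read beside it. Their counts of calls stand against the same shares of all genus-level groups, 32.8% in MERTK-KO+DSS against MERTK-KO mice, 32.0% in WT+DSS against WT mice, 40.2% in MERTK-KO against WT mice, 20.5% in MERTK-KO+DSS against WT+DSS mice and 9.02% for the interaction, and no enrichment was tested. Of 4 genera that free sulfate from host glycans (Akkermansia, Bacteroides, Muribaculum, Parabacteroides), 2 were called in MERTK-KO+DSS against MERTK-KO mice (1 higher, 1 lower), 3 in WT+DSS against WT mice (2 higher, 1 lower), 1 each in MERTK-KO against WT mice (lower) and in MERTK-KO+DSS against WT+DSS mice (higher), and 0 for the interaction (0 at an unadjusted p under 0.05, 0 by DESeq2 and 1 by limma). Akkermansia, a mucin degrader, held 0.767% ± 0.427 in MERTK-KO+DSS mice and 0.0345% ± 0.0201 in WT+DSS mice (SD, n = 4 each), 22.2-fold higher (edgeR adjusted p = 0.00475). Of 5 tested genera known for bile salt hydrolase, which frees the taurine that Bilophila uses, 2 were called in MERTK-KO+DSS against MERTK-KO mice (Turicibacter higher, Bifidobacterium lower), 3 in WT+DSS against WT mice (Bacteroides and Turicibacter higher, Lactobacillus lower) and 0 between genotypes or for the interaction. Beside those zeros, the unadjusted p was under 0.05 for 1 genus on water, 2 under DSS and 1 for the interaction, DESeq2 called 1 in each, and limma called 0, 1 and 1.

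Of the 2 acetogens that compete for hydrogen, Marvinbryantia was at least 69.3-fold lower in MERTK-KO+DSS than in MERTK-KO mice (edgeR adjusted p = 0.000209), and Blautia was 4.70-fold lower (adjusted p = 0.0494). Marvinbryantia was also called lower in WT+DSS than in WT mice and higher in MERTK-KO than in WT mice, and neither acetogen was called between the genotypes under DSS or for the interaction, where limma called 1 and DESeq2 called 0. Escherichia-Shigella, which frees sulfide from cysteine, held 0.532% ± 0.0838 in MERTK-KO+DSS mice and 0.0140% ± 0.0113 in MERTK-KO mice (SD, n = 4 each), 38.0-fold higher (adjusted p = 0.00124). It was also called higher in MERTK-KO+DSS than in WT+DSS mice and for the interaction, and the other 2 genera of its list, Fusobacterium and Proteus, had no ASV in the table. Single mice decided some of these calls. Blautia lost its call without any one of 6 of 8 mice (adjusted p 0.0611 to 0.12), Lactobacillus without 6 of 8 (0.0525 to 0.108), Bacteroides without WT+DSS mouse 3 or WT mouse 3 (0.119 and 0.0662), and the Parabacteroides call between genotypes on water without MERTK-KO mouse 1 or WT mouse 3 or 4 (0.0657 to 0.0894). The Marvinbryantia call between genotypes on water was lost without any one of 5 of 8 mice (0.0566 to 0.0857), and the Escherichia-Shigella interaction without any one of 4 of 16 (0.0524 to 0.135). Other settings ended calls as well: Akkermansia in WT+DSS against WT mice with traces set to 0 (adjusted p 1.0), Marvinbryantia on water with TMM scaling (0.0973), the Escherichia-Shigella interaction with limma (0.0513), Parabacteroides on water with limma (0.153), and Blautia with TMM scaling (0.0793), without the filter (0.0576) and with traces set to 0 (0.0597).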

How the data were processed

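Colon 16S libraries of 16 mice, 4 per group, were grouped by their titles, which number separate individuals. Both deposited tables hold the same whole-number counts per ASV, 1 of them with taxonomy, and the authors had brought them to equal totals of 96469 per library. No source used here gives the original depth, the amplified region, the tool that called ASVs or the database behind the names. The labels' protocols describe total RNA and a messenger RNA kit, whereas the series design gives 16S sequencing, and the template, DNA or RNA, is unknown.

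Counts were summed per family, per genus (ASVs without a genus name under their lowest named rank) and kept per ASV, which gave 72 families, 146 genus-level groups and 1901 ASVs. Taxa totalling 10 counts or more, in 3 libraries or more, were tested with edgeR 4.0.16 (glmQLFit with robust fitting, glmQLFTest) in R 4.3.3, with the library total as the scaling, 1 mean per group and Benjamini-Hochberg adjustment over all taxa of the level at 0.05. "At least" folds use a floor of 3 counts per mouse in the group at 0. Observed ASVs and family shares were compared by exact permutation tests over 70 arrangements. Alternatives were TMM scaling, limma 3.58.1 on log-ratios centred per library (0.5 added to counts), DESeq2 1.42.0, no filter, a replicate block, the compared groups alone, low traces (under 5% of the other DSS group) set to 0, and each mouse left out. Only the edgeR fit of ASVs was checked on simulated counts, without the filter and with the same dispersion for every ASV. The other methods and levels were not checked in this way. Tables and figures used Python 3.11.15, pandas 2.3.3, scipy 1.17.1 and matplotlib 3.10.9.

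The members and lists were chosen with earlier results of these data known. Described by mouse were the genus-level groups and ASVs with a mean share of at least 0.01% in a group or an adjusted p under 0.05, and outside the family the 3 most alike groups and the 4 substrate lists. No 2 replicates were alike within sampling noise (the smallest chi-square per degree of freedom over 24 pairs was 50.8). ASVs of 1 genus can come from the same cells and are not independent.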

Additional observations from a re-analysis of the deposited data

Results flagged for a closer look

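Single mice lying far from the other 3 of their group (by Dixon's gap ratio at its 95% level) were found in 14 of 50 sets of group and feature. For normal values chance gives about 1 in 20, a rate that does not apply to the 4 sets of ASV509 and ASV950, in which 1 mouse had counts and the other 3 had 0, and that is only a rough guide for the others. The sets overlap, since a genus-level group and its leading ASV share counts.

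MERTK-KO mouse 4 gave 5 of the 14. It had 2.67% Desulfovibrionaceae (other 3 mice 1.45% to 1.65%), 0.0933% Bilophila and, as the same counts, 0.0933% ASV55 (1.09% to 1.15%), 2.34% Desulfovibrio (0.108% to 0.243%) and 2.33% ASV21 (0.0923% to 0.189%). MERTK-KO+DSS mouse 4 had the lowest Desulfovibrio of its group, 0.84% (1.31% to 1.38%), with 0.823% ASV21 (1.28% to 1.36%). MERTK-KO mouse 1 had the highest share of unclassified Desulfovibrionaceae, 0.375% (0.221% to 0.244%).

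MERTK-KO+DSS mouse 2 had 0% ASV528 (0.0695% to 0.0736%) and 0.0342% ASV709 (0.00933% to 0.0124%). ASV509 was counted in WT+DSS mouse 2 (0.263%) and in WT mouse 1 (0.0342%), and ASV950 in WT+DSS mouse 2 (0.0124%) and in WT mouse 4 (0.00726%), with 0 in the other 3 mice of each group.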

How the results depend on the processing

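Most results kept their direction and their side of the threshold, but most of them were not called to begin with. The calls of Bilophila and of ASV55 were each lost in 8 of 15 alternatives, and that of ASV472 in WT+DSS against WT mice in 6 of 12. Kept in all were ASV208 and ASV528, ASV703 in MERTK-KO against WT mice, and the unclassified members in WT+DSS against WT mice. Every other member call was lost in at least 1 alternative. Limma on centred log-ratios gave the family -0.89 in MERTK-KO+DSS against MERTK-KO mice, 1.70 in MERTK-KO against WT mice (adjusted p = 0.00593) and -0.79 for the interaction. The centring moved the median of all families there to -0.79, 0.98 and -0.65, against 0.21, -0.89 and 0.36 in edgeR. At genus level TMM scaling left 0 of the 2 calls in MERTK-KO against WT mice and moved the median of all groups to -0.53, against -0.15. DESeq2 and limma each called 1 genus-level group and 1 ASV for the interaction. In WT+DSS against WT mice the ASV calls were 1 without the filter and 1 with traces set to 0. Counts of member calls in this section stand without the share of all taxa called in the same fit. They do not tell whether the members alone or the whole table gained or lost calls.

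The replicate numbers did not pair the mice (correlations of deviations -0.298 to 0.171 over 16 pairs, with 3 of 16 mice best matched by their own number). With the replicate block, ASV calls were 0 in WT+DSS against WT mice, 3 in MERTK-KO against WT mice and 3 in MERTK-KO+DSS against WT+DSS mice, genus-level calls in MERTK-KO against WT mice were 1, and ASV414 reversed in MERTK-KO+DSS against WT+DSS mice (1.41). Among the substrate genera the block ended the calls of Blautia (adjusted p 0.131) in MERTK-KO+DSS against MERTK-KO mice, Lactobacillus (0.0668) in WT+DSS against WT mice, Parabacteroides (0.0649) in MERTK-KO against WT mice and the Escherichia-Shigella interaction (0.0507).

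With each mouse left out, genus-level calls were 0 to 1 in MERTK-KO+DSS against MERTK-KO mice, 1 to 3 in MERTK-KO against WT mice (3 without MERTK-KO mouse 4) and 0 to 1 for the interaction. ASV calls were 0 to 1 in MERTK-KO+DSS against MERTK-KO mice, 1 to 2 in WT+DSS against WT mice and 0 to 1 for the interaction. The interaction of ASV703 reversed with limma (-0.66) and with traces set to 0 (-0.52), and ran from -0.51 (without MERTK-KO+DSS mouse 4) to 2.66 with a mouse left out. ASV950 in WT+DSS against WT mice ran from -3.91 (without WT+DSS mouse 2) to 4.64. The difference in observed ASVs between MERTK-KO+DSS and WT+DSS mice was 0.25 when an ASV counted as observed from 3 counts, and -1.0 to 0.333 with a mouse left out (above 0 without mouse 2 of either group). The causes were not tested beyond the settings' own construction.

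With 3 counts as the floor, ASVs under 0.00311% in a mouse cannot be told from absent ones. Equal totals hide the true depth, and 4 mice per group limit every comparison.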
